A study of Homo sapiens with 16 samples.

Results

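Grainyhead-like (GRHL) and OVO-like (OVOL) genes encode transcription factors of epithelial cells. This account follows 5 of them, GRHL1, GRHL2, GRHL3, OVOL1 and OVOL2, chosen by gene name from the 58721 genes counted in each of 16 RNA libraries, to ask how much of each is present in a luminal and a basal bladder cancer cell line and whether its level moves when the pioneer factor FOXA1 is knocked down. The lines were RT112, classified by the study as luminal papillary, and SCaBER, classified as basal/squamous, each an established line and so a single model of its class. Per the study's methods RT112 grew in RPMI and SCaBER in DMEM, so line and medium cannot be told apart in comparisons between lines. Cells of each line received siControl.1, siControl.2, siFOXA1.1 or siFOXA1.2, at 10 nM per the labels (the study's methods give the amount in another unit), with 2 libraries per siRNA and line. All groups, the controls included, were therefore transfected, and no untransfected cells were analysed here. Each library was read from the 3′ ends of transcripts and held 4528513 to 7604581 counts. A count of 3, taken as the floor of detection, stood for 0.394 to 0.662 CPM (counts scaled to a common library total). Nothing in the labels says that the replicates were separate cultures beyond a numbered experiment batch, so p-values measure the spread between these libraries, and with bulk RNA a lower level can be fewer cells holding a transcript or less of it per cell, which cannot be told apart.

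GRHL proteins bind DNA as dimers and switch on genes of adherens junctions, tight junctions and the epithelial surface. GRHL2 is known for keeping E-cadherin and claudin genes active, GRHL1 for desmosomal cadherins, and GRHL3 for the late steps of barrier formation, the last being a known feature of the umbrella cells of normal urothelium. OVOL1 and OVOL2 are zinc-finger repressors that hold down mesenchymal regulators such as ZEB1. FOXA1 opens chromatin at enhancers of luminal urothelial genes.

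The labelled identities of the lines were visible in the sums of their markers. Summed over 7 luminal markers, siControl libraries held 1918 to 2064 CPM in RT112 and 38.3 to 56.7 CPM in SCaBER. Over 7 basal markers they held 166 to 230 CPM in RT112 and 1514 to 3039 CPM in SCaBER. Of these basal markers, 5 were lower in RT112 at an edgeR adjusted p under 0.05, where 43.4% of all genes differed. KRT16 was higher in RT112 (0.90 on the log2 scale, edgeR adjusted p = 0.0370) and TP63 gave -0.26 (0.558). All 5 luminal markers tested were higher in RT112, while KRT20 and UPK3A had no count in any control library. The filter on low counts admits a gene that is high in 1 line alone, so these marker counts are descriptions. Among such genes were UPK1A (20.2 CPM in RT112 controls, 0 in SCaBER) and DSG3 (0 in RT112 controls, 11.9 CPM in SCaBER). FOXA1 itself stood at 35.0, 29.4, 18.2 and 28.4 CPM in the siControl libraries of RT112, at 1.32 and 3.24 CPM under siFOXA1.1 and at 9.18 and 16.0 CPM under siFOXA1.2. Every RT112 library with a FOXA1 siRNA was below every control, siFOXA1.1 by more (log2 fold change -3.44, SE 0.47, adjusted p = 2.19e-05 in the edgeR quasi-likelihood test) and siFOXA1.2 by less (-1.10, SE 0.39, adjusted p = 0.205). In SCaBER FOXA1 had 3 to 15 counts per control library and 0 to 6 under the FOXA1 siRNAs, so the target was low there before any knock-down.

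In the control cells GRHL2 was the most abundant of the factors in both lines and GRHL3 was close to the floor in both. Levels of different genes were compared as TPM, which scales each gene by its length before the library total, although a 3′ library reads the transcript end and TPM can then understate long genes. In RT112 the siControl means were 23.8 ± 2.07 TPM for GRHL2, 12.1 ± 3.46 for GRHL1, 11.5 ± 5.41 for OVOL1, 8.14 ± 2.90 for OVOL2 and 0.145 ± 0.246 for GRHL3 (SD, n = 4). GRHL2 stood clear of the others, while the ranges of GRHL1 and OVOL1, and those of OVOL1 and OVOL2, overlapped. In SCaBER the means were 25.8 ± 2.78 TPM for GRHL2, 14.5 ± 3.02 for OVOL1, 7.84 ± 1.07 for OVOL2, 1.97 ± 0.576 for GRHL1 and 0.0600 ± 0.0712 for GRHL3 (SD, n = 4), and no neighbours in that order overlapped. GRHL1 thus changed its place between the lines, from next to GRHL2 to next to GRHL3.

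**Figure D1:**
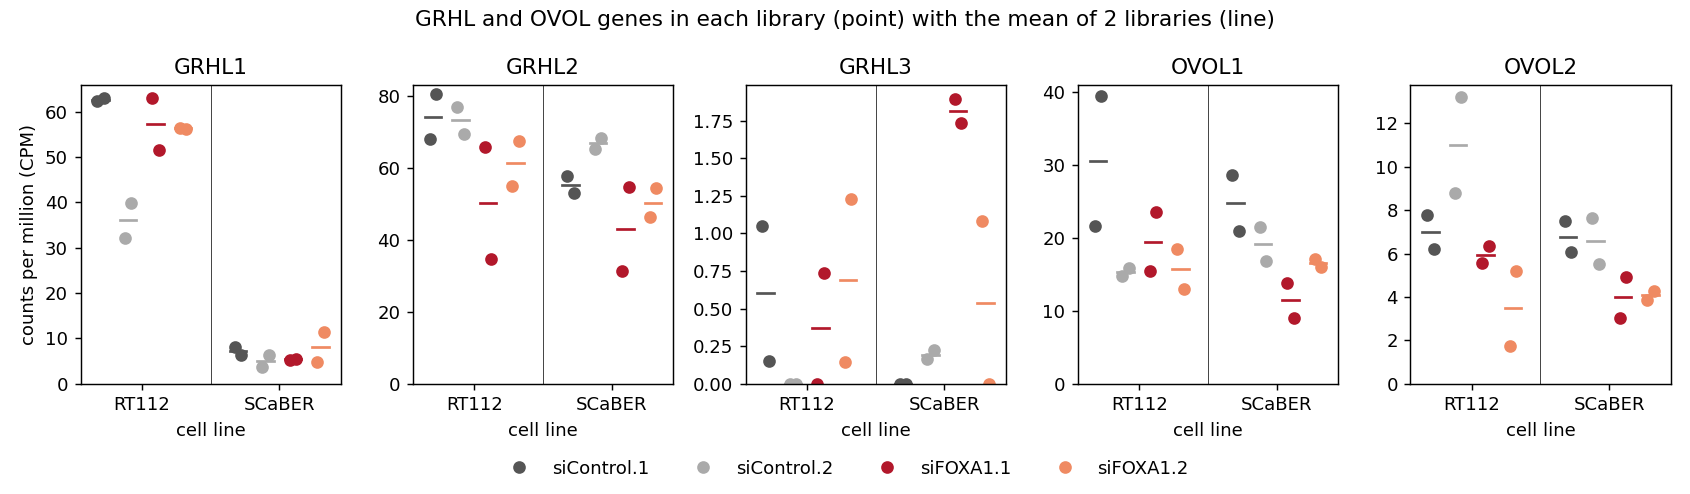
Level of the 5 genes in CPM (vertical axis, each panel with its own scale from 0) in RT112 and SCaBER, 1 point per library and a line at the mean of the 2 libraries of each siRNA. GRHL1 lies at 32.2 to 62.97 CPM in RT112 and at 3.73 to 11.4 CPM in SCaBER. GRHL2 in RT112 and OVOL2 in SCaBER have all 4 knock-down libraries below all 4 controls. The groups did not overlap, in either direction, in 7.95% of all genes tested in RT112 and 5.28% in SCaBER.

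GRHL1 was the 1 of 4 members passing the filter on low counts that differed between the lines under siControl, where 43.4% of all 12309 genes tested differed at an adjusted p under 0.05, the threshold for a call throughout. Its siControl libraries read 62.3 and 62.97 CPM with siControl.1 and 32.2 and 39.9 CPM with siControl.2 in RT112, and 8.15, 6.23, 3.73 and 6.40 CPM in SCaBER. The lowest RT112 library was above the highest SCaBER library, and the edgeR estimate of the difference was 3.03 log2 units (SE 0.32), higher in RT112, with an adjusted p of 2.36e-06. GRHL2 differed by 0.29 (95% interval -0.06 to 0.63, adjusted p = 0.166), OVOL1 by 0.08 (-0.62 to 0.79, 0.867) and OVOL2 by 0.43 (-0.41 to 1.27, 0.408), all 3 written as RT112 minus SCaBER on the log2 scale. The intervals leave room for differences up to the sizes given, and the direction for GRHL2 and OVOL1 was opposite when the test was made on TPM.

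GRHL1 (ENSG00000134317) lies on chromosome 2 at 9951693 to 10002277 of GRCh38. Upstream sequence was at hand for GRHL1 and GRHL3 alone, so GRHL2, OVOL1 and OVOL2 were not searched for motifs. The 250 bases before the annotated start of GRHL1 are given on the plus strand from RefSeq (GRCh38.p14), chr2:9951443-9951692.
GRHL1 upstream: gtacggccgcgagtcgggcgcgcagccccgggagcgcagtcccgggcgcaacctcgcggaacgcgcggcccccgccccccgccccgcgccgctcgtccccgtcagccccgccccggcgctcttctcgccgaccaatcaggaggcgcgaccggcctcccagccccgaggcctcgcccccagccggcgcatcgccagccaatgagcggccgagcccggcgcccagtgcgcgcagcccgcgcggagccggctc
This stretch is 81.6% G and C with 45 CG pairs, against a median of 58% G and C over the same window of 35116 promoters. Searches on both strands found none of 4 motifs in it: a forkhead motif (TGTTTNC, in 15.5% of all these windows), a grainyhead motif (AACCNGTT, in 1.49%), a GATA motif (AGATAA, in 9.17%) and an E-box (CACCTG, in 17.5%). The absence speaks only of these letters in this window.

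The genes that these factors are known to act on were compared between the lines in the same way. Of 24 epithelial genes (adhesion, tight junction and epithelial splicing genes), 10 were higher and 4 lower in RT112, against 43.4% called among all genes, with a median log2 fold change of 0.17 beside 0.02 over all genes tested. Of 15 mesenchymal genes 8 passed the filter, which admits a gene that is high in 1 line alone, so their count is a description. Of these, 5 were lower in RT112, namely CDH2, TGFB2, TWIST1, LOXL2 and SNAI2, and 2 were higher, FN1 and TGFBR2. N-cadherin (CDH2) had 88.3 ± 26.1 CPM in SCaBER controls (SD, n = 4) and no count in the RT112 controls. ZEB1, the best known target of OVOL repression, had no count in any of the 8 RT112 libraries and at most 11 in a SCaBER library. The 9 of 21 barrier genes that passed the same filter all differed, 4 higher in RT112 (among them IVL and SPRR3) and 5 lower (among them SPRR1B and SPRR2A). Of 4 related genes, TFCP2L1 was lower in RT112 (-1.87, adjusted p = 0.00797), and TFCP2 and UBP1 gave -0.04 and 0.22 (adjusted p = 0.911 and 0.434). OVOL3 did not pass the filter, with at most 5 counts in an RT112 library and 17 in a SCaBER library.

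**Figure D2:**
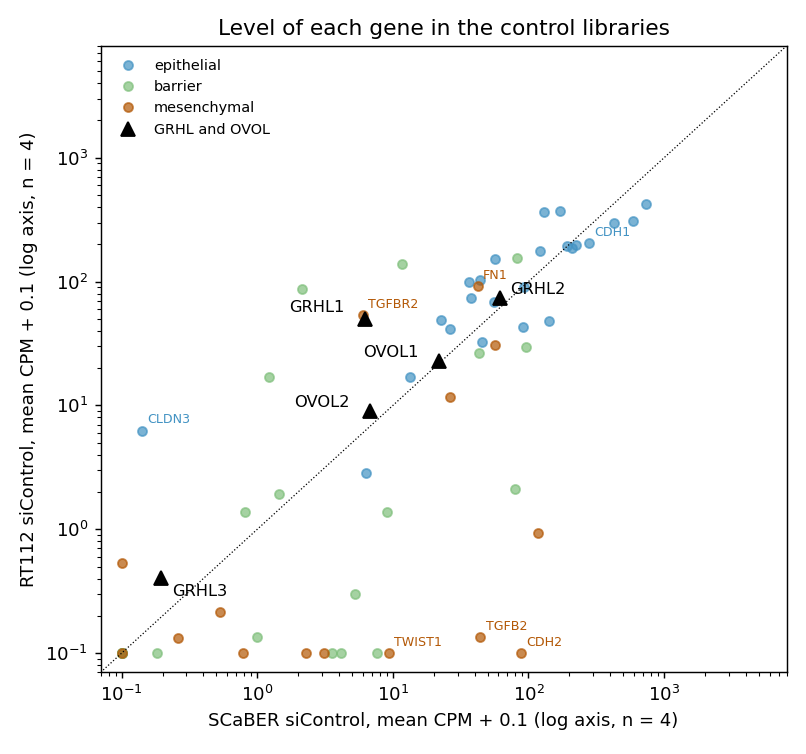
Mean siControl level of each gene in SCaBER (horizontal) and RT112 (vertical), both log axes of CPM + 0.1 with n = 4 libraries, for the 5 factors (triangles) and the epithelial, barrier and mesenchymal genes (circles). GRHL2, OVOL1 and OVOL2 sit near the dotted line of equal level, GRHL1 lies above it beside TGFBR2, and CDH2, TGFB2 and TWIST1 lie at the bottom, with SCaBER means of 88.3, 44.1 and 9.26 CPM.

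Knock-down of FOXA1 changed none of the 4 testable factors past the threshold with either siRNA in either line. Under siFOXA1.1 in RT112, the condition with the deepest loss of FOXA1, 0 of 4 members were called, where 32.6% of 11986 genes were. Under siFOXA1.2 in RT112 it was 0 of 4, beside 2.04% of all genes. In SCaBER it was 0 of 4 under siFOXA1.1 (background 9.26% of 11902 genes) and 0 of 4 under siFOXA1.2 (0.042%). At an unadjusted p under 0.05 edgeR gave 1 member in RT112 with siFOXA1.1 (GRHL1), 1 with siFOXA1.2 (OVOL2), 1 in SCaBER with siFOXA1.1 (OVOL1) and 0 with siFOXA1.2, and DESeq2 and limma called 0 in all of these. Taking both FOXA1 siRNAs together against both controls gave 0 of 4 in RT112 (0.108% of all genes) and 0 of 4 in SCaBER (0.0084%), with unadjusted p of at least 0.123 and 0.0668.

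**Figure D3:**
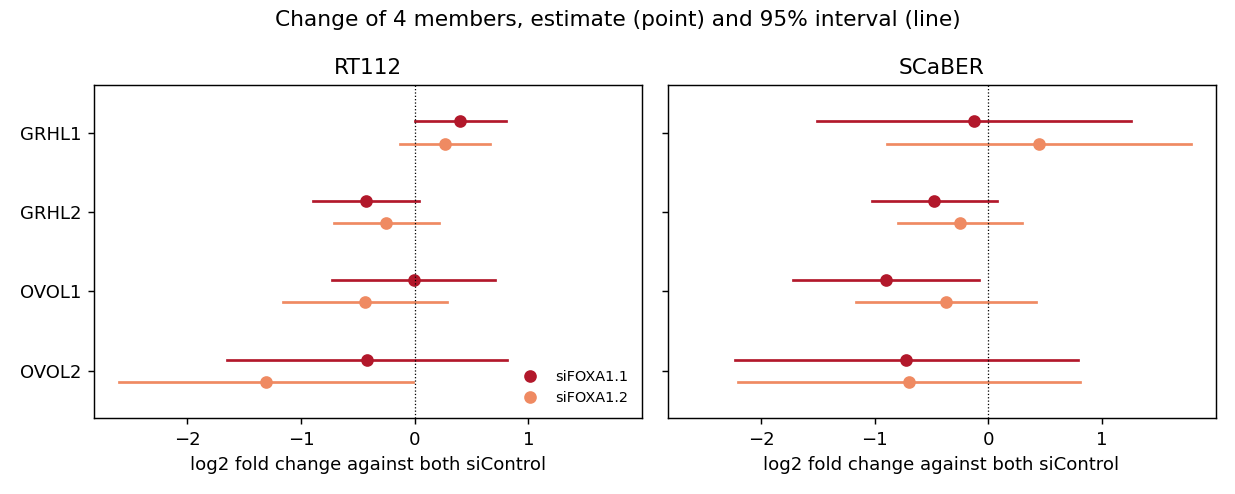
Log2 fold change (horizontal axis) of GRHL1, GRHL2, OVOL1 and OVOL2 under siFOXA1.1 and siFOXA1.2 against both siControl siRNAs in RT112 (left) and SCaBER (right), as the edgeR estimate with its 95% interval, from 2 libraries against 4. GRHL2, OVOL1 and OVOL2 have estimates below 0 with each siRNA in each line, from -0.01 to -1.31, and no member passed the adjusted threshold.

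GRHL2 (ENSG00000083307, on chromosome 8), the activator of E-cadherin and claudin genes, held 68.0, 80.6, 77.0 and 69.5 CPM in the RT112 controls, 65.9 and 34.6 CPM under siFOXA1.1 and 54.9 and 67.6 CPM under siFOXA1.2. All 4 knock-down libraries were below all 4 controls, where 7.95% of 11986 genes had groups that did not overlap, in either direction. The margin was narrow, since the highest knock-down library had 67.6 CPM and the lowest control 68.0. The group means were 55.8 ± 15.2 and 73.8 ± 6.05 CPM (SD, n = 4 each), and the two-sided exact permutation p was 0.0286, the smallest that 4 against 4 libraries can give. On TPM the groups overlapped and the exact permutation p was 0.0571. The log2 fold change was -0.43 under siFOXA1.1 (95% interval -0.90 to 0.04, adjusted p = 0.156) and -0.25 under siFOXA1.2 (-0.71 to 0.21, adjusted p = 0.751). The first of these rested on replicate 2, being -0.94 (adjusted p = 0.00688) without replicate 1 of siFOXA1.1 and -0.06 without replicate 2.

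In SCaBER, GRHL2 read 57.7, 53.0, 65.2 and 68.5 CPM in the controls, 31.2 and 54.8 CPM under siFOXA1.1 and 46.4 and 54.3 CPM under siFOXA1.2. The groups overlapped, since 2 knock-down libraries exceeded the lowest control. The means were 46.7 ± 11.0 and 61.1 ± 7.03 CPM (SD, n = 4 each, exact permutation p = 0.0857), and the log2 fold changes were -0.47 (adjusted p = 0.299) and -0.25 (adjusted p = 0.999). In each line the mean under the FOXA1 siRNAs was 75.6% and 76.4% of the control mean, RT112 first.

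GRHL1, known for control of desmosomal cadherins, differed more between the control siRNAs of RT112 than between knock-down and control. Against its 62.3 and 62.97 CPM with siControl.1 and 32.2 and 39.9 with siControl.2, it read 62.97 and 51.6 CPM under siFOXA1.1 and 56.5 and 56.3 CPM under siFOXA1.2. All 4 knock-down libraries lay above both siControl.2 libraries, 3 of them lay below both siControl.1 libraries, and the other was level with the higher siControl.1 library. The contrast of siControl.1 with siControl.2 gave 0.86 on the log2 scale (SE 0.22), with an edgeR adjusted p of 0.0487, and it made GRHL1 the 1 of 4 members called there, beside 2.36% of all genes. That call was lost with library totals alone (adjusted p = 0.0811), on TPM (0.231), with the replicate number as a block in a paired fit (0.0549), with the low-count filter set per siRNA (0.0539), and without any 1 of the 6 RT112 libraries of siControl.1, siControl.2 and siFOXA1.2 (0.0758 to 0.353). With both controls GRHL1 was 0.40 above control under siFOXA1.1 (95% interval 0.01 to 0.80, adjusted p = 0.114). With siControl.1 alone the value was -0.03 (adjusted p = 0.941) and with siControl.2 alone 0.83 (adjusted p = 0.00899), so the control siRNA decided both direction and call.

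GRHL1 in SCaBER was low throughout, at 5.30 and 5.50 CPM under siFOXA1.1 and 4.78 and 11.4 CPM under siFOXA1.2, from 28 to 72 counts per knock-down library. The knock-down and control ranges overlapped (6.75 ± 3.12 and 6.13 ± 1.82 CPM, SD, n = 4 each, exact permutation p = 0.771). Its log2 fold changes were -0.13 (95% interval -1.503 to 1.25) and 0.44 (-0.89 to 1.78), the widest intervals of the GRHL genes tested, and the second was -0.31 without the siFOXA1.2 library at 11.4 CPM.

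GRHL3 (ENSG00000158055, chromosome 1, 24319357 to 24364482) did not pass the filter in either line and is given by its counts. In SCaBER the controls had 0, 0, 1 and 1 counts, the siFOXA1.1 libraries 10 and 12, and the siFOXA1.2 libraries 7 and 0. In RT112 the controls had 8, 1, 0 and 0 counts, siFOXA1.1 0 and 5, and siFOXA1.2 1 and 9. Both siFOXA1.1 libraries of SCaBER thus exceeded all 4 controls of that line, a pattern singled out after its values were seen, while no other siRNA in either line had both libraries over the floor of 3 counts. The ratio of siFOXA1.1 to control in SCaBER, 22 counts of 12195353 against 2 of 23116903, was 20.9. For siFOXA1.2 in SCaBER it was 6.32, and in RT112 it was 1.18 for siFOXA1.1 and 2.27 for siFOXA1.2. These ratios of summed counts leave out the spread between libraries and rest on too few counts to measure a fold. With all 20017 genes of at least 1 count in the fit the adjusted p was 0.369, and the exact permutation p of the 4 knock-down against the 4 control libraries was 0.143 in SCaBER and 0.629 in RT112.

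GRHL3 is the other member with upstream sequence at hand. The 250 bases before its first annotated start are given on the plus strand from RefSeq (GRCh38.p14), chr1:24319107-24319356. Capitals mark the matches to the motifs searched.
GRHL3 upstream: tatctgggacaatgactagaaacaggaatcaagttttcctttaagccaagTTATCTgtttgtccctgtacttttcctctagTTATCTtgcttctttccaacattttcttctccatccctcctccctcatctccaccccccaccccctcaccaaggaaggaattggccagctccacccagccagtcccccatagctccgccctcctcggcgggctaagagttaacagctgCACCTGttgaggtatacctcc
The first and second runs of capitals are GATA motifs on the minus strand at bases -200 to -195 and -169 to -164 before the start, and the last is an E-box on the plus strand at -21 to -16, with no overlap between motifs. It held 50.8% G and C and 3 CG pairs, and neither the forkhead nor the grainyhead letters. A second annotated start, with its 250 bases at chr1:24322790-24323039, held none of the 4 motifs. A match is a description of letters and no measure of binding.

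OVOL1 (ENSG00000172818, chromosome 11, 65787063 to 65797214), a zinc-finger repressor, read 28.6, 20.9, 21.4 and 16.8 CPM in the SCaBER controls, 13.8 and 8.97 CPM under siFOXA1.1 and 17.1 and 16.0 CPM under siFOXA1.2. Both siFOXA1.1 libraries were below every control, and 1 siFOXA1.2 library was just above the lowest control. The log2 fold change was -0.90 under siFOXA1.1 (95% interval -1.72 to -0.08, adjusted p = 0.173) and -0.38 under siFOXA1.2 (-1.17 to 0.42, adjusted p = 0.999). The means were 14.0 ± 3.61 and 21.9 ± 4.92 CPM (SD, n = 4 each, exact permutation p = 0.0571), the knock-down mean being 63.8% of control.

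In RT112 OVOL1 spread widely among the controls, with 21.6 and 39.4 CPM under siControl.1 and 14.8 and 15.8 CPM under siControl.2. The knock-down libraries, 15.4 and 23.6 CPM with siFOXA1.1 and 18.5 and 13.0 CPM with siFOXA1.2, fell inside or just under that range. The siFOXA1.1 change was -0.01 (95% interval -0.72 to 0.70, adjusted p = 0.988) and the siFOXA1.2 change -0.44 (-1.16 to 0.28, adjusted p = 0.705), both turning above 0 with siControl.2 alone as control (0.52 and 0.09). The transcript OVOL1-AS1, annotated inside the OVOL1 locus at 65789001 to 65790868, had 0 to 9 counts in a library where OVOL1 had 62 to 261.

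OVOL2 (ENSG00000125850, chromosome 20, 18024152 to 18059188), the repressor best known for holding down ZEB1, had the lowest mean over both FOXA1 siRNAs relative to control of the 4 testable members in both lines, though not under siFOXA1.1 alone, where GRHL2 in RT112 and OVOL1 in SCaBER had the lower fitted change. Its SCaBER controls read 7.49, 6.08, 7.63 and 5.52 CPM, and its SCaBER knock-down libraries 3.03 and 4.92 CPM with siFOXA1.1 and 3.86 and 4.28 CPM with siFOXA1.2. All 4 knock-down libraries were below all 4 controls in SCaBER on CPM and on TPM (4.02 ± 0.791 and 6.68 ± 1.04 CPM, SD, n = 4 each, exact permutation p = 0.0286). OVOL2 was the 1 of 4 tested members whose groups did not overlap in SCaBER, where 5.28% of all genes did not, and GRHL2 was the 1 of 4 in RT112, where 7.95% did not. The SCaBER log2 fold changes were -0.72 (95% interval -2.23 to 0.79, adjusted p = 0.613) and -0.70 (-2.20 to 0.81, adjusted p = 0.999), from 16 to 47 counts per library, and leaving out single libraries kept them below 0 (-1.06 to -0.44 and -0.81 to -0.56).

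In RT112 OVOL2 read 7.76 and 6.19 CPM with siControl.1, 8.78 and 13.2 CPM with siControl.2, 5.57 and 6.33 CPM with siFOXA1.1, and 1.75 and 5.19 CPM with siFOXA1.2. The groups met only where a siFOXA1.1 library at 6.33 CPM passed a control at 6.19 CPM (4.71 ± 2.03 and 8.98 ± 3.01 CPM, SD, n = 4 each, exact permutation p = 0.0571), and on TPM they did not meet (p = 0.0286). The knock-down mean was 52.4% of control in RT112 and 60.2% in SCaBER. The RT112 log2 fold changes were -0.42 (95% interval -1.65 to 0.81, adjusted p = 0.629) and -1.31 (-2.60 to -0.01, adjusted p = 0.406). The second ranged from -2.30 to -0.73 as single libraries were left out, -0.73 being the value without the siFOXA1.2 library that held 12 counts. Over the 5 members and 2 lines 10 permutation tests were made on CPM and 10 more on TPM, with no adjustment for their number, and the libraries of 1 siRNA share that siRNA.

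The effects of the FOXA1 siRNAs on the members were also set against each other and between lines. Between siFOXA1.1 and siFOXA1.2, edgeR called 0 of 4 members in RT112, beside 28.1% of all genes, and 0 of 4 in SCaBER, beside 4.85%. Between the control siRNAs of SCaBER it called 0 of 4, beside 0.0672%. The edgeR test of the change in RT112 minus the change in SCaBER passed in 0 of 4 members for siFOXA1.1 (3.14% of 13701 genes, member differences 0.03 to 0.87) and in 0 of 4 for siFOXA1.2 (0.0438%, differences -0.61 to 0.01). None of these members had an unadjusted p under 0.05 in these contrasts, and DESeq2 and limma called 0 in each.

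The factors did not pass the test under siFOXA1.1 in RT112, and most genes of the epithelial list did. The gene lists of this account were chosen with earlier results of these data known, so their counts are descriptions. SEs were 0.19 for GRHL1, 0.22 for GRHL2, 0.34 for OVOL1 and 0.58 for OVOL2. They ran from 0.096 (SPINT2) to 0.82 (CLDN3) in the epithelial list. The part of the precision of the fits in these outcomes was not tested. Of the 24, 16 rose and 5 fell, with a median log2 fold change of 0.75 beside -0.01 over all genes, of which 32.6% were called. The count that fell was 3 without siControl.2 replicate 1, without siControl.1 replicate 2 or with siControl.2 alone as control. The serine protease gene PRSS8 rose by 1.98 (267 ± 30.0 CPM, n = 2, against 74.2 ± 2.07, n = 4) and the tight junction gene OCLN by 2.07 (10.5 ± 2.02 against 2.74 ± 1.61; all SD). The 5 that fell were the tight junction plaque gene CGN (-1.67), the desmosomal genes DSP (-1.58) and PKP3 (-0.78), and the epithelial splicing regulators ESRP2 (-0.89) and ESRP1 (-0.62). CDH1, encoding E-cadherin and a known GRHL2 target, rose by 1.34 (adjusted p = 1.51e-07), and CLDN4, another, by 1.41, both named here after their values were seen. The list also holds the claudin genes CLDN7, which rose by 0.87, and CLDN3, at -1.27 and not called (edgeR adjusted p = 0.258). On TPM the split was 11 higher and 6 lower, and over all genes library totals alone moved the calls from 1870 higher and 2033 lower to 1452 and 2483, with the median of all genes at -0.15.

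These RT112 siFOXA1.1 libraries also stood apart in other measures. Mitochondrial genes held 25.7 to 28.2% of their counts, against 18.0 to 21.2% in the RT112 controls. Of 11 stromal and immune markers, 6 had no count in any RT112 library (COL3A1, DCN, PDGFRB, VWF, PTPRC and CD3E), and the summed level was 55.0 to 58.1 CPM under siFOXA1.1 against 10.4 to 17.7 CPM in controls, led by COL1A1 (55.2 ± 1.84 CPM, n = 2, against 8.76 ± 1.40, n = 4, SD). The part of the mitochondrial share and of COL1A1 in the results on epithelial genes was not tested. Luminal markers fell in 5 of 5 tested, among them UPK1A (-2.25) and GATA3 (-0.82), where 32.6% of all genes were called. Of 5 basal markers tested, KRT5 rose (0.79), TP63 fell (-2.53) and the others were not called. The basal median log2 fold change was -0.34 beside -0.01 over all genes.

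Fewer epithelial genes were called with the other conditions, each in its own contrast. For siFOXA1.1, the edgeR test of the change in RT112 minus that in SCaBER called 0 of 24 higher and 2 lower. The median difference was 0.15, beside -0.03 over all genes, of which 3.14% were called. Under siFOXA1.2 in RT112, 1 of 24 rose and 1 fell (LLGL2, -0.78), with a median of 0.07 beside 0.01 over all genes. The LLGL2 call was lost without siControl.2 replicate 1, siControl.1 replicate 2 or either siFOXA1.2 library, with siControl.2 alone as control and on TPM, and the 1 that rose was lost with siControl.2 alone. Under siFOXA1.1 in SCaBER 5 of 23 tested rose, among them PRSS8 (1.70), RAB25 (0.98), F11R (0.94) and CGN (0.81), with a median of 0.50 beside 0.01. CGN was thus higher in SCaBER and lower in RT112 with the same siRNA, and its change in RT112 minus that in SCaBER was -2.49 (adjusted p = 0.000519, edgeR). The SCaBER count was 2 without siControl.2 replicate 1, 3 without siControl.1 replicate 1, 3 without siControl.2 replicate 2, 3 with siControl.2 alone as control or on TPM, 6 without siFOXA1.1 replicate 1, and 7 with DESeq2, with the replicate block or with no filter beyond 1 count. Under siFOXA1.2 in SCaBER edgeR called 0 of 23 (1 at an unadjusted p under 0.05, 0 by DESeq2 and by limma).

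**Figure D4:**
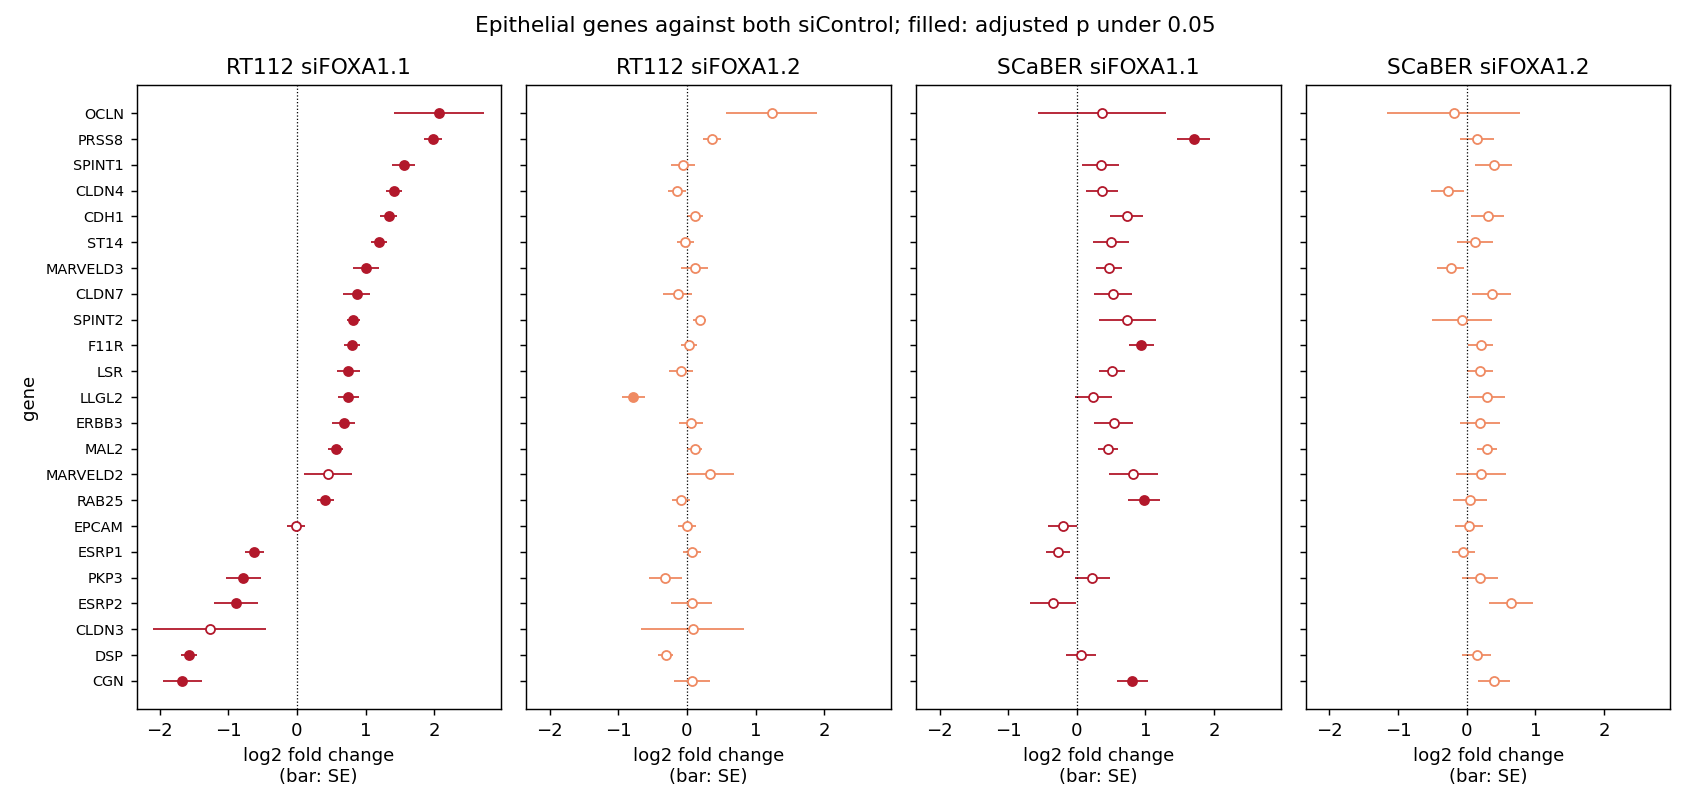
Log2 fold change (horizontal axis, bar for SE) of 23 of the 24 epithelial genes, in the order of their RT112 siFOXA1.1 values, for each FOXA1 siRNA in each line against both siControl siRNAs, with filled points where the adjusted p was under 0.05. RT112 siFOXA1.1 has 20 filled points, 15 above 0 and 5 below, SCaBER siFOXA1.1 has 4, RT112 siFOXA1.2 has 1 and SCaBER siFOXA1.2 has 0; CLDN3 was not tested in SCaBER.

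Barrier genes, which GRHL1, GRHL3 and OVOL1 are known to regulate, were mostly low, and 9 of 21 were at or under the floor in all RT112 libraries and 5 of 21 in all SCaBER libraries. Of 8 tested in RT112, 4 rose under siFOXA1.1, among them the cornified envelope gene SPRR3 (1.08), the desmocollin DSC2 (0.82), a known GRHL target family, and CST6 (0.75), with a median of 0.79 beside -0.01 over all genes, of which 32.6% were called. SPRR3 fell under siFOXA1.2 (-1.25, 36.3 ± 9.31 CPM, n = 2, against 87.7 ± 14.3, n = 4, SD) while IVL rose (0.62), so SPRR3 moved in opposite directions with the 2 FOXA1 siRNAs in RT112 (difference 2.32, adjusted p = 3.22e-07). The SPRR3 call was lost without siFOXA1.2 replicate 1, and the IVL call without any 1 of the 6 control and siFOXA1.2 libraries or on TPM. KLK5, encoding a protease of the skin barrier, failed the filter in RT112 for being high with 1 siRNA alone and is named after its values were seen: it read 62.7 and 61.1 CPM under siFOXA1.1, 0.657, 0.302, 5.99 and 0.417 CPM in the controls, and had no count under siFOXA1.2. Both siFOXA1.1 libraries were thus above all other RT112 libraries. In SCaBER 2 of 10 rose under siFOXA1.1, DSC2 (1.04) and CST6 (0.98), with a median of 0.08 beside 0.01 over all genes, and 1 rose without siControl.2 replicate 1 or on TPM.

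Of the mesenchymal genes, among them targets of OVOL repression, few passed the filter and few of those were called. In RT112 1 of 4 tested changed with each siRNA: TGFBR2 fell under siFOXA1.1 (-1.76, 14.5 ± 0.788 CPM, n = 2, against 53.8 ± 4.34, n = 4, SD) and FN1, encoding fibronectin, rose under siFOXA1.2 (0.84), a call lost without either siFOXA1.2 library and on TPM. The medians were -0.28 and 0.51, beside -0.01 and 0.01 over all genes, of which 32.6% and 2.04% were called. FN1 in RT112 also differed with the control siRNA, at 74.4 and 55.3 CPM with siControl.1 and 118 and 119 CPM with siControl.2. Under siFOXA1.2 it read 159 and 151 CPM. Between the control siRNAs of RT112, 1 of 4 mesenchymal genes was called, beside 2.36% of all genes. CDH2, at 0 in the RT112 controls and not passing the filter there, reached at most 21 counts in an RT112 library. In SCaBER 1 of 9 tested changed under siFOXA1.1, FN1 with 1.41 (106 ± 6.73 CPM, n = 2, against 42.1 ± 14.9, n = 4, SD; 0 called on TPM), and the median was -0.20 beside 0.01, where 9.26% of all genes were called. Under siFOXA1.2 in SCaBER edgeR called 0 of 9 (2 at an unadjusted p under 0.05, 0 by DESeq2 and by limma), with a median of -0.19 beside 0.01. Of the related genes TFCP2, TFCP2L1 and UBP1, edgeR called 0 of 3 in every one of these comparisons, and 0 at an unadjusted p under 0.05.

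Across the 8 libraries of a line the factors did not rise and fall as 1 set. Pearson's r of log2(CPM + 1) between members ran from -0.50 (GRHL1 with OVOL2) to 0.42 (GRHL1 with OVOL1) in RT112 and from -0.06 (GRHL1 with OVOL2) to 0.80 (GRHL2 with OVOL2) in SCaBER. GRHL2 with OVOL2 had 0.28 in RT112. These are descriptions over 8 libraries, in which each siRNA is shared by 2 libraries and depth varies as given above.

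The genes whose patterns over a line's libraries were most like each member's were found among 11985 (RT112) or 11901 (SCaBER) others, where high values arise among so many genes over 8 points. For GRHL1 they were AP001094.2, PHLPP2 and ACPP in RT112 (r = 0.96, 0.96 and 0.95) and BTG1, ACCS and PPP1R7 in SCaBER (0.93 each). For GRHL2 they were RF00019, TTC39C and HELB in RT112 (0.98 each) and NACC2, FHL3 and HOXA-AS2 in SCaBER (0.96 each). For OVOL1 they were UCHL3, GNL3L and NUDT12 in RT112 (0.96, 0.90 and 0.89) and CKS1B, PFKL and POLA2 in SCaBER (0.97 each). For OVOL2 they were ANG, TECR and MCAT in RT112 (0.96, 0.96 and 0.95) and TMEM184C, COQ8A and KIAA0232 in SCaBER (0.96, 0.94 and 0.93). No gene was named for the same member in both lines.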

How the data were processed

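RNA from 16 samples was made into 3′ mRNA libraries with the Lexogen forward kit. Per the labels and the deposited pipeline configuration, the authors trimmed reads with TrimGalore 0.6.2 (minimum quality 20, minimum length 10), aligned them with STAR 2.6.1a to hg38 and counted them over GENCODE 29, and deposited whole-number counts per gene and TPM values, with no replicates pooled. The study's methods name another build for its alignments, so the build is taken from the labels and the configuration. From the counts, genes were filtered with filterByExpr by line and target, scaled by TMM and tested with edgeR 4.0.16 quasi-likelihood (R 4.3.3), Benjamini-Hochberg adjusted over all genes, called under 0.05. SEs are the fold change over the root of F. CPM divides by the library total. Single members were compared with the two-sided exact permutation test (scipy 1.17.1). Alternatives were DESeq2 1.42.0, library totals, no filter, limma 3.58.1 on log2(TPM + 1), a replicate block, single control siRNAs and leaving out each library. A filter by siRNA was run first and replaced after its results were seen. It is kept as an alternative. Members and gene lists were chosen with earlier results of these data known. The replicate number marks an experiment batch in the labels, and same-numbered libraries' deviations correlated at -0.02 to 0.01 in RT112 and 0.02 to 0.20 in SCaBER. Named list genes were those called with the largest change, at most 4 per list, line and siRNA, with a mean of at least 20 counts. Like genes were sought for members with a mean of at least 10 counts. Tests were checked on simulated data with changes planted only in well-counted genes, so the check does not cover members with few counts. No libraries held identical values, and every column of values belonged to a sample. A gene of the epithelial list is counted but not reported here by name.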

Additional observations from a re-analysis of the deposited data

Results flagged for a closer look

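Among the 4 siControl and the 4 siFOXA1 libraries of each line, 2 member values stood apart from the other 3 by the gap to the nearest library over the group's range, in 20 groups examined, where chance alone marks about 1 in 20. GRHL1 in the SCaBER knock-down libraries read 11.4 CPM in siFOXA1.2 replicate 2, while the others lay between 4.78 and 5.50 CPM (gap over range 0.892). GRHL3 in the RT112 controls read 1.05 CPM in siControl.1 replicate 1, from 8 counts, while the others lay between 0 and 0.151 CPM (gap over range 0.856).

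Beyond the factors, edgeR found the siFOXA1.1 change to differ between the lines in 4 genes of the epithelial, barrier and mesenchymal lists. Of these lists 24, 14 and 9 genes were tested, and 3.14% of all 13701 genes were called. Values are given as the change in RT112 minus that in SCaBER on the log2 scale. CGN had -2.49 (adjusted p = 0.000519), DSP -1.65 (adjusted p = 0.00168) and FN1 -1.73 (adjusted p = 0.00671). KLK5, which failed the filter in RT112 alone, had 6.195 (adjusted p = 0.0226). That value was fitted from 428 and 415 counts in the RT112 siFOXA1.1 libraries and 0 to 45 counts in every other library.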

How the results depend on the processing

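Counts of members called were the same under the alternatives run, with these exceptions. In RT112 siFOXA1.1 the count was 1 with siControl.2 alone as control (GRHL1) and 0 to 1 as single libraries were left out, the 1 being GRHL2 without siFOXA1.1 replicate 1. For siControl.1 against siControl.2 in RT112 the count was 0 with library totals, on TPM, with the replicate block (GRHL1 0.86, adjusted p = 0.0549) and with the filter by siRNA, and 0 to 1 as single libraries were left out. The block changed no other member call. Directions turned for uncalled values only. With siControl.1 as the sole control, GRHL1 in RT112 stood at -0.0289 for siFOXA1.1 and at -0.16 for siFOXA1.2. With siControl.2 alone OVOL1 in RT112 was 0.52 and 0.0902, and GRHL1 in SCaBER under siFOXA1.1 was 0.12. DESeq2 put OVOL1 in RT112 siFOXA1.1 at 0.00780. On TPM the line differences of GRHL2 and OVOL1 were -0.11 and -0.38. Without single libraries, OVOL1 ranged from -0.39 to 0.28 in RT112 siFOXA1.1 and from -0.33 to 0.24 between lines, and GRHL1 from -0.30 to 0.0915 under siFOXA1.1 and -0.31 to 0.93 under siFOXA1.2 in SCaBER. The causes were not tested. The count of epithelial genes that rose was 11 to 16 in RT112 siFOXA1.1 under the other settings and 13 to 17 without single libraries. In SCaBER siFOXA1.1 it was 3 on TPM and with siControl.2 alone, 7 with DESeq2, the replicate block or no filter, 5 in the other settings, and 2 to 6 without single libraries. These list alternatives, the filter by siRNA and the permutation test on TPM were chosen after seeing the data. Members at 12 to 95 counts per library (OVOL2, and GRHL1 in SCaBER) have intervals wider than 1 on the log2 scale on each side in most fits, and GRHL3 is below the depth at which a fold can be fitted.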
